A study of Mus musculus with 3 samples.

Results

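The 895 venous endothelial cells described here were found among 4061 endothelial cells and 14759 deposited barcodes of dissociated mouse hippocampus. They numbered 500 in replicate 1, 72 in replicate 2 and 323 in replicate 3. The mice were wild-type C57BL/6 animals of 2 years, and all 3 libraries form 1 group, with no younger animals, other genotype or treatment beside them. Tissue was digested with papain, freed of myelin with beads and profiled by droplet-based counting of RNA 3′ ends (10x Chromium). The series text speaks of 6 hippocampi, the labels do not say which animals gave which library, and replicate 3 has 25 months in its title although its age label equals the others. The p-values below therefore rest on how far differences between classes varied over these 3 libraries, for the gene itself and, pooled, for all genes in the fit. That variation may in part be technical.

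Members were selected on measured values, namely on detected genes, where detection means at least 1 unique molecular identifier (UMI, a counted RNA molecule). A barcode counted as endothelial with at least 2000 UMIs, at most 20% of them mitochondrial, at least 3 of the 6 genes Cldn5, Flt1, Pecam1, Itm2a, Cdh5 and Ly6c1, and at most 1 of Slc1a2, Aqp4, Cx3cr1, Vtn and Ccdc153, which mark other brain cells. The venous set (V) was Slc38a5, Ackr1, Lrg1, Il1r1, Vwf and Cyp2e1, and the arterial set (A) was Gkn3, Sema3g, Bmx, Vegfc, Egfl8 and Stmn2. Venous cells held at least 2 V genes and more V than A genes. Arterial cells, defined the opposite way, numbered 731, 97 and 459 in replicates 1, 2 and 3. Remaining endothelial cells, which were neither, numbered 958, 187 and 734, and "other endothelial cells" means arterial and remaining cells together.

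Endothelium changes along the vessel tree from arteries through capillaries to veins, and venules are the segment where circulating leukocytes roll, stick and leave the blood. Their endothelium is known for the transcription factor Nr2f2 and the receptor Ephb4, whereas arterial endothelium carries Notch signalling and the ligand Efnb2. In brain, capillary and venous endothelium also carries the transporters of the blood-brain barrier.

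Venous cells made up 22.8% of endothelial cells in replicate 1 (95% Clopper-Pearson interval 21.1 to 24.7), 20.2% in replicate 2 (16.2 to 24.8) and 21.3% in replicate 3 (19.3 to 23.5), or 21.5% ± 1.31 (SD, n = 3 libraries). These intervals cover counting error only. The share depended on depth: with every endothelial cell thinned to 2000 UMIs before classes were assigned, it was 8.47% ± 1.56 (SD, n = 3). Venous cells held medians of 11114, 12614 and 8704 UMIs in replicates 1, 2 and 3, against 6825, 8272.5 and 5682 in other endothelial cells. Arterial cells held 8862, 11009 and 8087, and remaining cells 5767.5, 6576 and 4566.5. Venous cells were thus the deepest class in every library, and a rule that asks for detected genes selects on depth. Their median mitochondrial share was 2.58%, 3.56% and 4.72%, against 2.28%, 3.61% and 4.58% in other cells. The libraries held 45716237, 7185668 and 40377042 UMIs in all, Scrublet called 2.46%, 0.753% and 2.29% of all barcodes doublets, and 17 barcode sequences occurred in more than 1 library.

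The 6 V genes chose the cells, so their values are a description with no test. Slc38a5, a glutamine transporter, was detected in 88.8%, 79.2% and 86.7% of venous cells in replicates 1, 2 and 3, against 3.01%, 1.03% and 2.18% of arterial and 12.5%, 9.63% and 7.22% of remaining cells. Vwf, which encodes von Willebrand factor, was found in 97.0%, 97.2% and 99.4% of venous cells, but also in 67.6%, 74.2% and 81.9% of arterial and 48.9%, 53.5% and 66.1% of remaining cells. Vwf was therefore widespread and separated the classes least. Il1r1, the signalling receptor of interleukin-1, was detected in 45.0%, 47.2% and 48.6% of venous cells, against 3.01%, 8.25% and 4.14% of arterial and 1.67%, 3.74% and 2.45% of remaining cells. Cyp2e1, a cytochrome P450, was detected in 34.4%, 26.4% and 16.7% of venous cells and in at most 2.06% of arterial or remaining cells of any library. The narrowest markers were Ackr1, an atypical chemokine receptor of venules, in 6.80%, 5.56% and 7.74% of venous cells, and Lrg1, a secreted glycoprotein, in 8.20%, 4.17% and 11.5%. Neither exceeded 0.871% of arterial or remaining cells in any library. Yet in replicate 1 the 3 remaining cells with Ackr1 brought that class to 19.5 CPM (UMIs per 1000000 UMIs of the class). The 34 venous cells with Ackr1 there brought theirs to 78.7 CPM.

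**Figure D1:**
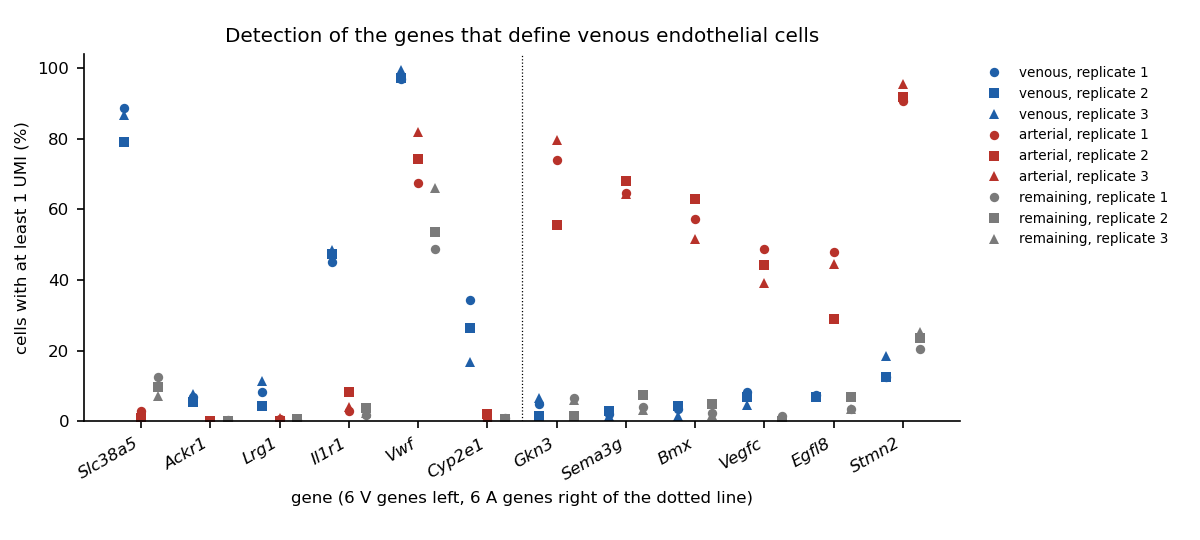
Each point is the percentage of cells of 1 class in 1 library with at least 1 UMI of the gene on the x axis (y axis, %), for the V genes on the left and the A genes on the right. Slc38a5 stands between 79.2% and 88.8% in venous cells, Ackr1 stays at or under 7.74% there, and Vwf is at or above 48.9% in all 3 classes.

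Of the 895 venous cells, 481 held exactly 2 V genes, 224 held 3, 134 held 4, 44 held 5 and 12 held all 6. Among the 481 at the lower limit, 373 held Slc38a5 and Vwf as their only V genes, 366 of the 481 held no A gene and 115 held 1. Of all 895 venous cells, 282 held an A gene. None of the rule's genes of other brain cells was detected in 405 of the 895, and the rest held 1, as the rule allows. Just outside the rule, 60 cells had at least 2 V genes but as many A genes, and 766 had 1 V gene and no A gene, which was Vwf in 628. Counting only cells with at least 2 V genes besides Vwf, the venous share was 10.1% ± 1.30 (SD, n = 3). To see the V genes in molecules that did not choose the cells, each UMI was put at random into 1 of 2 portions, and classes were formed from one and levels read from the other. In the unused portion Slc38a5 was at 284, 184 and 390 CPM (UMIs per 1000000 UMIs of the class) in venous cells of replicates 1, 2 and 3, against 33.8, 21.8 and 33.6 CPM in other cells. Ackr1 was at 109, 0 and 82.1 CPM in venous cells, against 0.270, 0.681 and 0 CPM in other cells. In replicate 2, with 52 venous cells in this split, no unused molecule of Ackr1 fell in that class. Ackr1 also chose the cells here, so these levels are a description.

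The first comparison asked how venous cells differed from other endothelial cells of the same library. UMIs were summed per library and class and tested with edgeR's quasi-likelihood test, blocked by library, and p-values were adjusted over all genes by Benjamini-Hochberg at 0.05. The genes named in the rule were not tested. The fit left 2 residual degrees of freedom, and the test draws the variance of each gene toward that of all genes. Small p-values thus rest in part on this pooled variance. Of 11004 genes tested, 664 were higher in venous cells (6.03%) and 987 lower (8.97%). The median log2 fold change of all genes was 0.01. Without replicate 1 the counts were 312 higher and 577 lower, without replicate 2 they were 975 and 1295, and without replicate 3 they were 443 and 754. Arterial cells sit on the other side of this comparison by construction, so lower arterial genes follow in part from how the sides were formed. Log2 fold changes below are venous over other cells. The value after ± was worked back from the test, as the size of the log2 fold change over the square root of its F statistic. It can understate the error where UMIs are few.

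Among the 12 highest genes by the naming rule, the first was Sele, which encodes E-selectin, the adhesion molecule that slows rolling leukocytes (chr1:164048234-164057677 in GRCm38). Sele stood at 41.3, 10.7 and 20.7 CPM in venous cells of replicates 1, 2 and 3, against 1.52, 0 and 0.120 CPM in other endothelial cells. All 3 venous values lay above all 3 others, and the log2 fold change was 5.13 ± 0.28 (adjusted p = 2.96e-08). Vcam1, which binds integrins on leukocytes, reached 1112, 325 and 702 CPM in venous cells, against 140, 50.9 and 86.8 CPM in other cells (log2 2.92 ± 0.08, adjusted p = 5.54e-11). Icam1, the ligand for leukocyte integrins that supports firm adhesion, was at 751, 809 and 554 CPM in venous cells, against 127, 194 and 129 CPM in other cells (log2 2.25 ± 0.09, adjusted p = 1.95e-09). These adhesion receptors were higher in venous cells of every library with no overlap between classes.

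Adhesion genes as a group did not move one way. Of 20 tested members of a leukocyte adhesion list, 5 were higher, namely Sele, Vcam1, Icam1, Esam and Jam2, and 6 were lower, against 6.03% and 8.97% of all genes, and the list's median log2 fold change was -0.09. The lower members were Podxl, Ceacam1, Vcan, Jam3, Mcam and the leukocyte gene Ptprc. Mcam, a junctional adhesion protein, was at 7.31, 4.87 and 5.47 CPM in venous cells, against 24.1, 24.9 and 18.4 CPM in other cells (log2 -1.80 ± 0.17, edgeR adjusted p = 4.85e-06). Selp, which encodes P-selectin, was too low to be tested here and returns below.

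Venous identity genes outside the rule were higher almost without exception. Of 18 tested members of a list of venous genes, 17 were higher (94.4%, against 6.03% of all genes) and 1 was lower (5.56%, against 8.97%). Their median log2 fold change was 1.66. The list was drawn up with earlier results of these data known, so its count is no independent evidence of direction. Nr2f2, the transcription factor of venous fate, was at 128, 75.1 and 103 CPM in venous cells, against 17.7, 19.4 and 15.7 CPM in other cells (log2 2.66 ± 0.12, edgeR adjusted p = 5.84e-09). Ephb4, the venous ephrin receptor, was at 58.2, 62.4 and 88.5 CPM in venous cells, against 36.6, 53.01 and 46.3 CPM in other cells (log2 0.68 ± 0.11, adjusted p = 0.000478). Both stood higher in every venous profile, so the label held on these genes for venous cells summed together. In venous cells with only 2 V genes, Nr2f2 was at 63.7, 26.5 and 67.9 CPM and Ephb4 at 41.0, 58.3 and 65.9 CPM. These values lay above other cells of the same library, but by less than those of all venous cells. Nrp2, a neuropilin of veins and lymphatics, rose by 2.46 ± 0.19 and Flrt2, a membrane protein, by 2.61 ± 0.11 on the log2 scale. Car14, a carbonic anhydrase, rose by 2.08 ± 0.10 and Nsg1, a protein of endosomes, by 2.04 ± 0.21. The exception was Smad6, an inhibitor of Bmp signalling, at 38.4, 35.1 and 37.4 CPM in venous cells, against 93.7, 82.8 and 87.0 CPM in other cells (log2 -1.26 ± 0.08). Against other cells with no A and no V gene, Smad6 was at -0.29 (edgeR adjusted p = 0.607), and 10 of the 18 venous genes were higher. Over all genes 101 were higher and 290 lower against that set of cells. That set held 264, 48 and 131 cells in replicates 1, 2 and 3, of which 160, 24 and 50 had at least 4000 UMIs. Among all 1689, 284 and 1193 other cells, 1394, 223 and 850 had as many. It is thus a smaller and shallower set, and the part of this in the calls lost against it, here and below, was not tested.

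**Figure D2:**
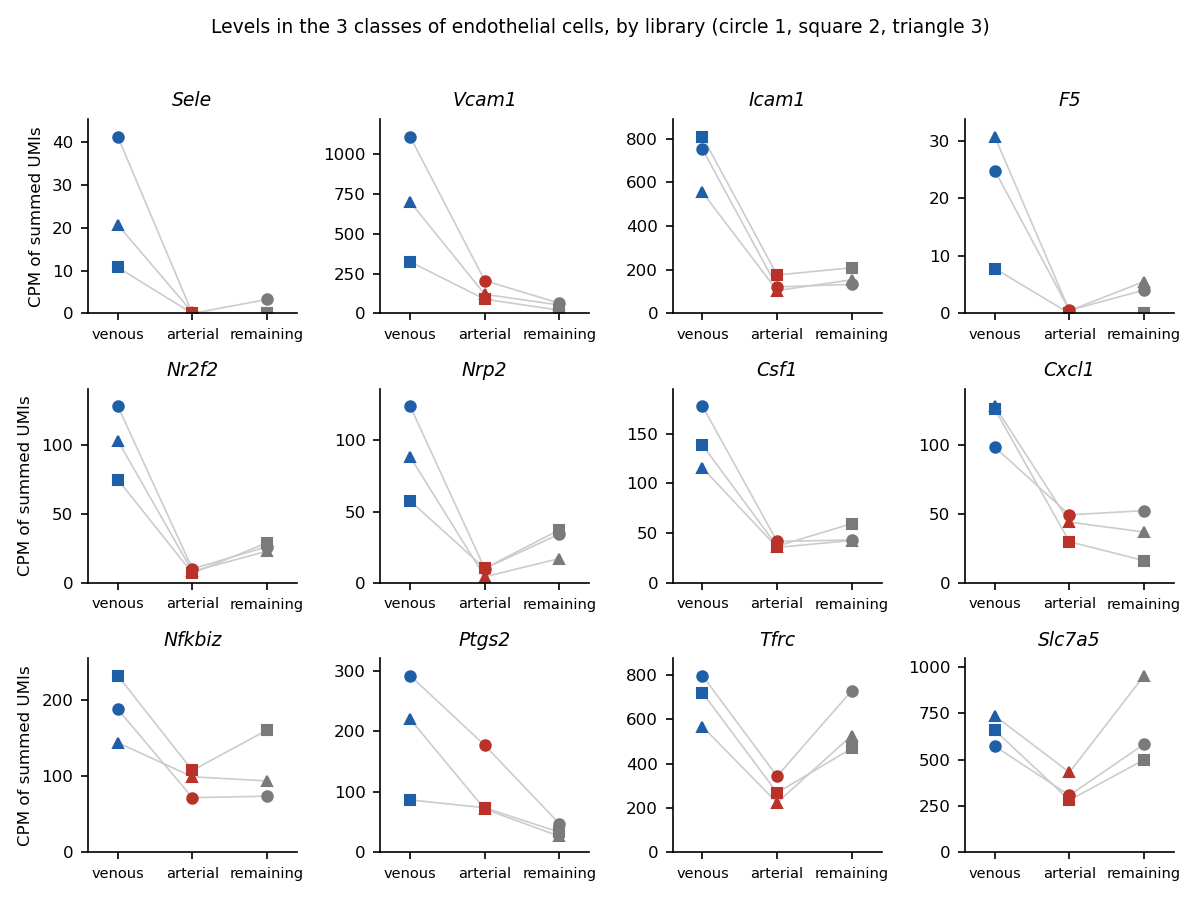
Each panel shows 1 gene, with the level in CPM of summed UMIs on the y axis and venous, arterial and remaining endothelial cells on the x axis; lines join the 3 classes of 1 library. Sele, Vcam1, Icam1, F5 and Nr2f2 are highest in venous cells of every library, whereas Slc7a5 in replicates 1 and 3 is higher in remaining cells.

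Genes of the NF-kappaB response, which inflammatory receptors such as Il1r1 switch on, were among the groups with most calls. Of 25 tested members, 17 were higher (68.0%, against 6.03% of all genes) and 2 were lower, with a median log2 fold change of 0.43. Tnfaip3, which restrains the pathway, was at 83.9, 172 and 82.1 CPM in venous cells, against 47.4, 95.6 and 40.6 CPM in other cells (log2 0.88 ± 0.08, edgeR adjusted p = 2.84e-06). Its classes overlapped between libraries, yet venous cells were higher in each library. Irf1, an interferon regulatory factor, rose by 0.76 ± 0.09, Rel, a subunit of NF-kappaB, by 0.74 ± 0.09 and Cebpd by 0.60 ± 0.06 on the log2 scale. Nfkbia, the inhibitor that the pathway itself induces, was at 2829, 2931 and 2541 CPM in venous cells, against 2305, 2123 and 1733 CPM in other cells (log2 0.43 ± 0.07, adjusted p = 0.00112). Rela, another subunit, had a log2 fold change of 0.01 ± 0.08 (adjusted p = 0.957). The lower members were Socs3 at -0.40 ± 0.06 and Cebpb at -0.44 ± 0.12.

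The size of the NF-kappaB difference depended on which cells stood on the other side. Against only those other cells that held no A and no V gene, the list's median was 0.23, Rel was at -0.17 (adjusted p = 0.785) and Tnfaip3 at 0.07 (adjusted p = 0.992). With this narrower set 4 of 23 tested members were higher and 2 lower, in a fit that called 101 higher and 290 lower over all genes. With other cells matched to venous cells in UMIs, 10 of 25 were higher and 3 lower and the median was 0.27. That fit called 499 higher and 876 lower over all genes. DESeq2 called 10 members higher and 1 lower, beside 280 and 516 over all genes. In the split of UMIs described above the list's median was 0.56.

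Of secreted cytokines and chemokines, 5 of 13 tested members were higher (38.5%, against 6.03% of all genes) and 3 lower (23.1%, against 8.97%). Csf1, the growth factor of microglia and macrophages, was at 178, 138 and 116 CPM in venous cells, against 42.4, 49.6 and 39.1 CPM in other cells (log2 1.77 ± 0.10, edgeR adjusted p = 5.57e-08). Cxcl1, a neutrophil chemoattractant, was at 98.4, 126 and 128 CPM in venous cells, against 50.7, 22.2 and 40.5 CPM in other cells (log2 1.45 ± 0.17, adjusted p = 3.54e-05). Both were higher in venous cells of every library without overlap. Tnfsf10, a death ligand of the Tnf family, and Il15, a lymphocyte cytokine, rose by 0.58 ± 0.09 and 0.62 ± 0.16. The fifth higher member, Cxcl10, a chemokine induced by interferon, was at 87.2, 28.3 and 45.3 CPM in venous cells, against 12.4, 70.0 and 20.8 CPM in other cells. Its call (log2 1.39 ± 0.42, adjusted p = 0.0421) went against replicate 2, where other cells were higher.

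Ccl2, a monocyte chemoattractant, ran the other way, with 5.18, 2.92 and 2.74 CPM in venous cells, against 40.7, 132 and 8.74 CPM in other cells (log2 -3.24 ± 0.27, edgeR adjusted p = 2.10e-06). When classes and levels came from separate UMIs, its log2 fold change was -0.99 (adjusted p = 0.0871). Markers of microglia, a listed set of 9 genes of which none was at 0 in venous cells, summed to 253, 445 and 264 CPM in venous cells, against 508, 1991 and 810 CPM in other cells. They moved with Ccl2, and their part in the result was not tested. The lower members Ccl5 and Cxcl12 had log2 fold changes of -2.15 and -0.43.

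The promoters of 3 genes are shown because these genes, an inhibitor, a growth factor and a chemokine, were all higher in venous cells and each window holds a match to a motif of the kind NF-kappaB binds. The sequences are RefSeq promoter windows of GRCm38.p6, 250 bases before to 50 after the start of transcription, written 5′ to 3′ on the gene's strand. Capitals mark matches to GGGNNNTTCC on either strand. Nfkbia lies at chr12:55492598-55492897 (minus strand), Csf1 at chr3:107760420-107760719 (minus strand) and Cxcl1 at chr5:90890995-90891294 (plus strand).
Nfkbia: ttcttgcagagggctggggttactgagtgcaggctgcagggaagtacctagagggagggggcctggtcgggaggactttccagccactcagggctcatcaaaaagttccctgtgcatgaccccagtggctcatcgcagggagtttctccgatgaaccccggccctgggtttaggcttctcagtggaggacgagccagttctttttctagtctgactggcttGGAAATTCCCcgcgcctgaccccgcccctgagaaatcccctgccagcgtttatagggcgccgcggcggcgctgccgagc
Csf1: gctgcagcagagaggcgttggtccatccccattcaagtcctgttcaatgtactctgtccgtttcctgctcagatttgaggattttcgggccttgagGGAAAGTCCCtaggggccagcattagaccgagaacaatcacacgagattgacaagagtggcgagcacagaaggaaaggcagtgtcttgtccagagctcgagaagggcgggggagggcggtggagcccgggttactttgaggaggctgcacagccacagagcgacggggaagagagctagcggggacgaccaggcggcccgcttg
Cxcl1: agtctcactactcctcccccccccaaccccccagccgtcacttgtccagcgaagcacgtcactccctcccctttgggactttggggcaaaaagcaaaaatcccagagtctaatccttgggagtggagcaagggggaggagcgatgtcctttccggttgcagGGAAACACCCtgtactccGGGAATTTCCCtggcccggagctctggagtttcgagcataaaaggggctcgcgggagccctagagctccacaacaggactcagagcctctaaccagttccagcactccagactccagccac
The match begins 29 bases before the start of Nfkbia and 154 before that of Csf1. Cxcl1 has matches that begin 89, 71 and 70 bases before its start, and those at 71 and 70 overlap each other. Of the 27 genes called higher in the adhesion, chemokine and NF-kappaB lists, 18 were in the promoter table and 7 of these held GGGNNNTTCC, which 6.31% of 27025 genes and 5.56% of 32851 promoters of this length hold. Of 3 spellings searched, the looser GGGNNNNTCC was held by 12 of the 18 and by 21.3% of all genes, and the stricter GGGNNTTTCC by 5 of the 18 and by 1.89% of all genes. Every match to the strictest spelling is also a match to the other 2, and a match is a description of letters only. The NF-kappaB list was made of genes of this response, and no share is given for list members that were not called. The shares therefore describe the lists and say nothing about venous cells.

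Receptors and messengers of inflammation gave smaller differences. Of 28 cytokine receptors and signalling genes, 5 were higher (17.9%, against 6.03% of all genes) and 3 lower (10.7%, near the 8.97% of all genes). Il6ra, the interleukin-6 receptor, was at 72.3, 61.4 and 80.2 CPM in venous cells, against 34.4, 36.7 and 39.7 CPM in other cells (log2 0.99 ± 0.09, edgeR adjusted p = 4.99e-06). Its signalling partner Il6st rose by 0.49 ± 0.08, and Il2rg, Ifngr2 and Ifnar1 were the other higher members. Interferon response genes stayed near the background, with 3 of 34 higher and 2 lower, and a median of -0.01. Peptide-presenting genes of MHC class I did so too, with 2 of 21 higher (H2-K1 and H2-T23), and neither H2-K1 nor H2-T23 was called without replicate 1 or without replicate 3 (edgeR adjusted p of 0.112 to 0.274).

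Genes of prostaglandin and nitric oxide synthesis were higher in 6 of 14 (42.9%, against 6.03% of all genes) and lower in 3 (21.4%, against 8.97%). Ptgs2, the inducible cyclooxygenase, was at 292, 86.8 and 220 CPM in venous cells, against 117, 51.3 and 49.3 CPM in other cells (log2 1.53 ± 0.15, edgeR adjusted p = 1.02e-05). Venous cells summed together were higher in each library, although replicate 2 of the venous cells lay under replicate 1 of the other cells. In the 481 venous cells with only 2 V genes, Ptgs2 was at 70.2, 17.7 and 61.4 CPM, under other cells in replicates 1 and 2. In venous cells with 4 or more V genes it was at 568, 272 and 614 CPM. Ptges, the next enzyme towards prostaglandin E2, rose by 0.82 ± 0.10. Nos2, the inducible nitric oxide synthase, was at 19.2, 36.1 and 22.2 CPM in venous cells, against 4.20, 6.93 and 7.42 CPM in other cells (log2 1.98 ± 0.18, adjusted p = 4.78e-06), with no overlap. Ddah1, which degrades an inhibitor of nitric oxide synthases, rose by 0.86 ± 0.08, and Nos3, the endothelial synthase, by 0.26 ± 0.06. Nos1 fell to 1.07, 0.975 and 2.43 CPM in venous cells, against 27.6, 30.1 and 27.7 CPM in other cells, and among other cells it was found in arterial cells, at 50.9, 64.4 and 53.8 CPM in arterial cells.

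Ptgds, the prostaglandin D synthase of fibroblasts and choroid plexus, was among the 12 lowest by the naming rule but rested on replicate 1. It was at 0.457, 0 and 2.74 CPM in venous cells, against 63.6, 2.08 and 2.75 CPM in other cells. Its call (edgeR adjusted p = 3.57e-05) was lost with DESeq2 (adjusted p = 0.375), and without replicate 1 or without replicate 3 the gene was not tested. Fibroblast markers, a set of 10 genes, summed to 224, 159 and 125 CPM in venous cells, against 209, 78.0 and 64.4 CPM in other cells. In venous cells 3, 6 and 5 of them were at 0, Col3a1, Lum and Ogn in every library, and Dcn had 11, 1 and 2 UMIs. The part of these markers in the result was not tested.

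Haemostasis genes were higher in 3 of 16 (18.8%, against 6.03% of all genes) and lower in 7 (43.8%, against 8.97%). F5, coagulation factor V, was at 24.8, 7.80 and 30.7 CPM in venous cells, against 2.17, 0 and 2.99 CPM in other cells (log2 3.49 ± 0.22, edgeR adjusted p = 1.40e-07). Tfpi, the inhibitor of the tissue factor pathway, rose by 0.57 ± 0.12. F3, the tissue factor itself, was at 5.48, 3.90 and 2.74 CPM in venous cells, against 9.85, 6.58 and 6.22 CPM in other cells (log2 -0.92 ± 0.24, adjusted p = 0.0159). Mmrn2, Anxa5, Entpd1, Procr, S100a10 and Plat were the other lower members, and against other cells with no A and no V gene Mmrn2 and Entpd1 had the opposite sign (log2 0.38 and 0.14). Against remaining cells alone 5 of 17 were higher (29.4%, against 4.02% of all genes) and 4 lower (23.5%, against 5.42%). Against arterial cells alone 3 of 17 were higher (17.6%, against 7.92%) and 5 lower (29.4%, against 10.5%).

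Iron handling and acute phase genes were higher in 6 of 15 (40.0%, against 6.03% of all genes) and lower in 3 (20.0%, against 8.97%). Lcn2, the siderophore-binding lipocalin of the acute phase, was at 194, 23.4 and 168 CPM in venous cells, against 9.06, 1.04 and 20.8 CPM in other cells (log2 3.73 ± 0.21, edgeR adjusted p = 2.98e-08). Every venous value exceeded every other value, and replicate 2 was lowest on both sides. In venous cells with only 2 V genes, Lcn2 was at 15.8, 5.30 and 27.1 CPM, and in those with 4 or more at 450, 72.6 and 512 CPM. Slc40a1, the iron exporter ferroportin, rose by 0.75 ± 0.06, and Tfrc, the transferrin receptor, by 0.69 ± 0.07. Of 12 tested complement genes 2 were higher (16.7%) and 3 were lower (25%), C1qa, Clu and C3ar1, beside the same 6.03% and 8.97%. C1qa and C3ar1 are made by microglia, whose markers were also lower in venous cells as given above, and their part in these calls was not tested.

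Transporters of the blood-brain barrier were higher in 18 of 33 (54.5%, against 6.03% of all genes) and lower in 5, by small amounts, with a median log2 fold change of 0.24. Against other cells with no A and no V gene, the smaller and shallower set, edgeR called 0 of the 33 higher and 2 lower, beside 101 and 290 of all genes. At an unadjusted p under 0.05 the transporter counts were 5 and 3, with a median of 0.25. DESeq2 called 10 transporters higher and 4 lower against all other cells, beside 280 and 516 of all genes. With at least 2 V genes besides Vwf edgeR called 10 and 6, beside 687 and 943 of all genes. Slc39a8, a zinc and manganese importer, was at 149, 113 and 117 CPM in venous cells, against 84.0, 63.8 and 68.0 CPM in other cells (log2 0.80 ± 0.07, edgeR adjusted p = 2.70e-06). Slc22a8, an organic anion transporter, was at 346, 374 and 372 CPM in venous cells, against 216, 176 and 250 CPM in other cells (log2 0.74 ± 0.08). Slc16a1, the lactate carrier, rose by 0.66 ± 0.08 and Slc7a5, a large amino acid carrier, by 0.37 ± 0.09. Not called were Slc2a1, the glucose carrier, at -0.17 ± 0.07 (adjusted p = 0.155), Mfsd2a, the lipid carrier that restrains transcytosis, at -0.26 ± 0.11 (adjusted p = 0.143), and Abcb1a, a drug efflux pump, at 0.20 ± 0.07 (adjusted p = 0.0696). Lrp1, Apoe, Abca1, Slc30a1 and Slc9a3r2 were lower, and Lrp1 and Apoe are also expressed by astrocytes or microglia. Markers of astrocytes summed to 265, 155 and 312 CPM in venous cells, against 646, 458 and 682 CPM in other cells, over 8 genes of which none was at 0 in venous cells. Their part in these lower values was not tested.

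**Figure D3:**
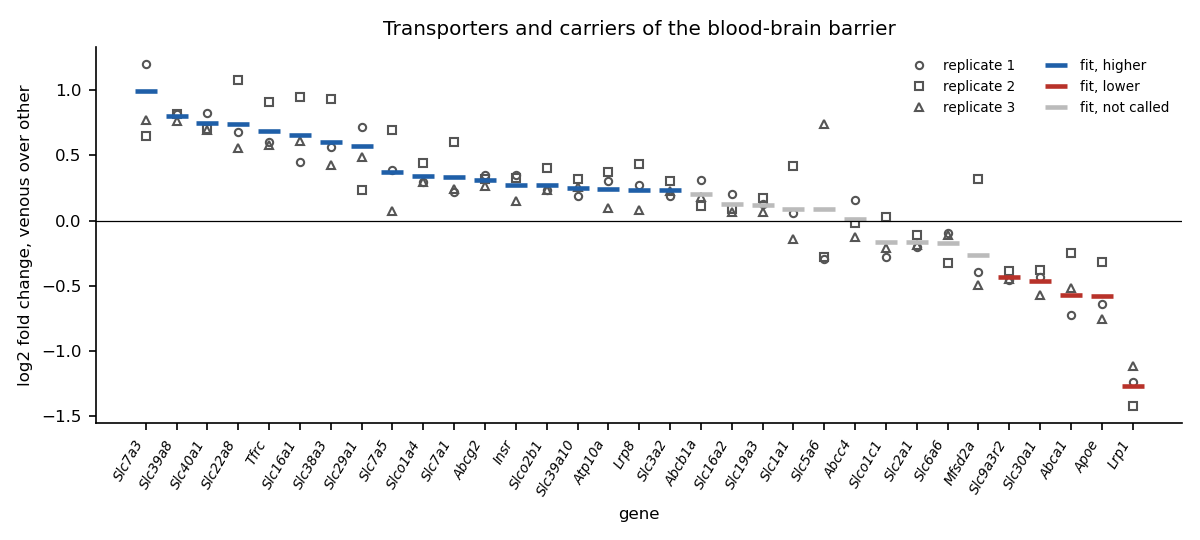
For each tested transporter or carrier on the x axis, open symbols give the log2 fold change of venous over other endothelial cells in each library (y axis) and the bar gives the fitted value, coloured by call. The 18 genes called higher lie between 0.24 and 0.99, and Lrp1 is lowest at -1.27.

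Capillary genes, and genes of the Wnt pathway that maintains the barrier, held more higher than lower calls against all other cells. Of 20 capillary genes 12 were higher (60%, against 6.03% of all genes) and 3 lower (15%, against 8.97%). The lower ones were Cxcl12, Rgcc and Ivns1abp. Rgcc, a regulator of the cell cycle, was at 379, 335 and 235 CPM in venous cells, against 598, 464 and 396 CPM in other cells (log2 -0.65 ± 0.07). Of 27 genes of Wnt signalling and barrier transcription, 9 were higher (33.3%) and 2, Reck and Sox18, were lower (7.41%), beside the same shares of all genes. Nkd1, a target and inhibitor of the pathway, was at 239, 222 and 220 CPM in venous cells, against 153, 133 and 131 CPM in other cells (log2 0.69 ± 0.06, edgeR adjusted p = 4.53e-06), and the receptor Fzd4 rose by 0.51 ± 0.08. Wnt5a, a Wnt ligand outside this list, was at 69.7, 68.2 and 82.4 CPM in venous cells, against 9.93, 20.8 and 10.6 CPM in other cells (log2 2.64 ± 0.16). With at least 2 V genes besides Vwf, 5 capillary genes were higher and 5 lower, beside 687 and 943 of all genes. In the split of UMIs they were 6 and 4, beside 517 and 692 of all genes. DESeq2, run against all other cells, called 4 Wnt genes higher and 1 lower, beside 280 and 516 of all genes. Against other cells with no A and no V gene, 1 capillary gene was higher and 2 lower, beside 101 and 290 of all genes. There edgeR called 0 of 26 Wnt genes (6 higher at an unadjusted p under 0.05). In that setting none of Slc39a8, Slc40a1, Slc22a8, Tfrc, Nkd1 and Fzd4 was called (edgeR adjusted p of 0.137 to 0.646). Their log2 fold changes were 0.35, 0.49, 0.40, 0.31, 0.39 and 0.50.

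Genes of the arterial side were lower. Of 24 arterial genes outside the rule 22 were lower (91.7%, against 8.97% of all genes), which the choice of sides favours. Against other cells with no A and no V gene 8 of 21 were lower, in a fit that called 101 higher and 290 lower over all genes. Notch and ephrin genes were lower in 12 of 25 (48.0%, against 8.97% of all genes) and higher in 2, Ephb4 and Adam10. Against remaining cells 4 of 26 were lower (15.4%, against 5.42% of all genes) and 3 higher. In the fit against other cells with no A and no V gene, 4 of 23 were lower and 1 higher, beside the same 290 and 101 of all genes. Hey1, a Notch target, was at 15.4, 15.6 and 9.12 CPM in venous cells, against 179, 230 and 161 CPM in other cells (log2 -3.76 ± 0.11, edgeR adjusted p = 8.46e-11). Efnb2, the arterial partner of Ephb4, was at 16.4, 11.7 and 6.99 CPM in venous cells, against 113, 75.5 and 63.7 CPM in other cells (log2 -2.87 ± 0.12). Gja4, a gap junction protein of arteries, left 9 UMIs in all venous cells (0.914, 0.975 and 0.608 CPM), against 54.3, 23.6 and 20.5 CPM in other cells. By the rule for the largest decreases, Nov, Pi16, Igfbp3, Lypd1, Col18a1, Cdh13, Gper1, Fbln2 and Prune2 were named beside Gja4, Nos1 and Ptgds. Nov kept 4 UMIs in venous cells, so its fitted log2 fold change of -6.42 ± 0.28 rests on few molecules. Jag2, a Notch ligand, was lower at -0.56 but had the opposite sign (log2 0.17) against cells with no A and no V gene.

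**Figure D4:**
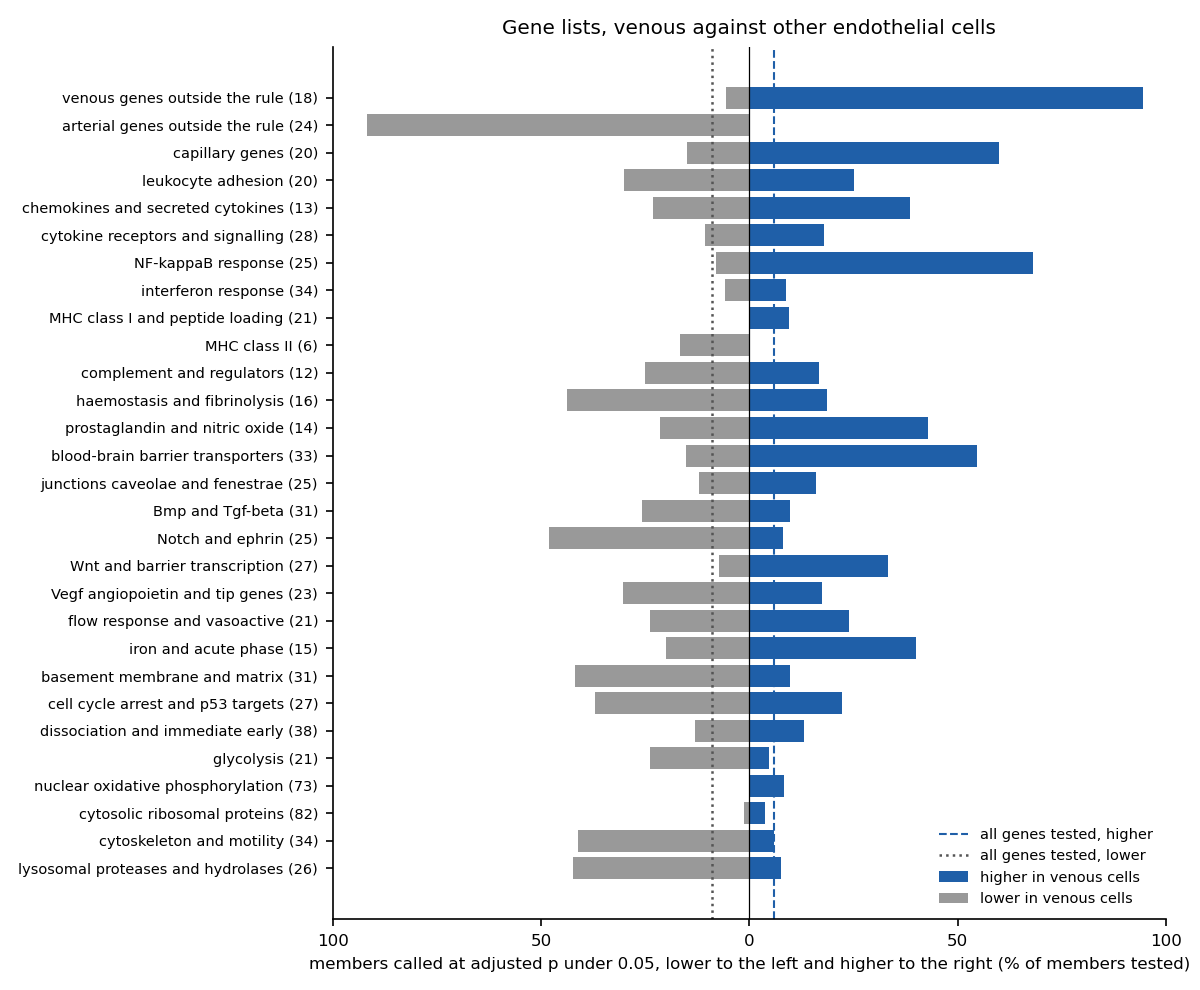
Bars give, for each gene list (number tested in brackets), the percentage of tested members called higher in venous cells (right) or lower (left) at an adjusted p under 0.05; dashed and dotted lines give the same over all genes, 6.03% and 8.97%. The venous list (17 of 18), the NF-kappaB list (17 of 25) and the capillary list (12 of 20) reach farthest right, and the arterial list (22 of 24) farthest left.

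Separating the other cells into arterial and remaining cells, in 1 fit over 11172 genes, gave each difference its own value. Against arterial cells 885 genes were higher in venous cells (7.92%) and 1168 lower (10.5%). Against remaining cells 449 were higher (4.02%) and 606 lower (5.42%). Without replicate 1 these were 401 and 592 against arterial cells, and 134 and 268 against remaining cells. Without replicate 3 they were 450 and 681 against arterial cells, and 175 and 358 against remaining cells. Both comparisons share the venous profiles, so their values are given side by side. With cells matched in depth, 140 genes were higher and 301 lower than in remaining cells.

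Sele, Vcam1, Icam1, F5 and Nr2f2 were higher in venous cells than in either class. Sele had 1 UMI in all arterial cells (0, 0 and 0.238 CPM) and 3.27, 0 and 0 CPM in remaining cells, against which venous cells had a log2 fold change of 4.15 ± 0.36 (edgeR adjusted p = 1.36e-06). Sele against remaining cells was not called with DESeq2 (adjusted p = 0.157). Vcam1 was at 206, 89.5 and 120 CPM in arterial and 64.2, 20.5 and 52.96 CPM in remaining cells, and venous cells exceeded them by 2.34 ± 0.11 and 3.92 ± 0.12 on the log2 scale. Icam1 exceeded arterial cells by 2.42 ± 0.10 and remaining cells by 2.11 ± 0.10. Nr2f2 was at 10.2, 7.07 and 8.33 CPM in arterial and 26.3, 29.1 and 23.1 CPM in remaining cells, with log2 fold changes of 3.58 ± 0.15 and 2.08 ± 0.13. F5 exceeded remaining cells by 2.61 ± 0.23. The NF-kappaB list was higher in 13 of 25 against arterial cells (52.0%, against 7.92% of all genes) and in 15 of 25 against remaining cells (60%, against 4.02%), with 1 lower in each.

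Most transporter calls were made against arterial cells. Against arterial cells 20 of 34 transporters were higher (58.8%, against 7.92% of all genes) and 9 lower (26.5%, against 10.5%). Against remaining cells 4 were higher (11.8%, against 4.02%) and 3 lower (8.82%, against 5.42%). Slc16a1 exceeded arterial cells by 1.52 ± 0.12 (edgeR adjusted p = 1.37e-07) and stood at 0.14 ± 0.12 against remaining cells (adjusted p = 0.621). Tfrc exceeded arterial cells by 1.30 ± 0.09 and stood at 0.26 ± 0.09 against remaining cells (adjusted p = 0.0863). Car4, a carbonic anhydrase of capillaries and veins, followed a gradient, with 1021, 973 and 919 CPM in venous, 71.1, 96.6 and 73.6 CPM in arterial and 645, 451 and 594 CPM in remaining cells. Capillary genes were higher in 12 of 20 against arterial cells (60%, against 7.92% of all genes) and in 2 of 20 against remaining cells (10%, against 4.02%). Whether the 2 differences of a gene differ from each other was not tested.

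Lysosomal and microglial genes were lower against remaining cells. Of 26 lysosomal proteases and hydrolases 13 were lower than in remaining cells (50%, against 5.42% of all genes), 6 lower than in arterial cells (23.1%, against 10.5%) and 11 lower than in all other cells (42.3%, against 8.97%). Ctss, a protease of microglia, was at 37.9, 95.5 and 44.1 CPM in venous cells, against 35.1, 96.6 and 35.0 CPM in arterial and 145, 562 and 242 CPM in remaining cells. The 6 lowest named genes against remaining cells were Ptgds, Ccl2, Lgals3, Lypd1, Lyz2 and C1qc. Microglial markers summed to 253, 445 and 264 CPM in venous cells, 220, 644 and 288 CPM in arterial cells and 838, 3053 and 1338 CPM in remaining cells, thus moving with these genes, and their part in the result was not tested. Ctsc, a lysosomal protease of the venous list, went the other way, at 249, 183 and 163 CPM in venous cells, 70.8, 66.0 and 49.0 CPM in arterial and 106, 131 and 74.9 CPM in remaining cells. Against remaining cells 10 of 34 interferon genes (29.4%) and 10 of 21 MHC class I genes (47.6%) were higher, beside 4.02% of all genes. Against arterial cells 7 of 34 (20.6%) and 5 of 21 (23.8%) were lower, beside 10.5% of all genes.

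Venous cells varied among themselves with the number of V genes they held, which is part of the rule and is given without a test. Sele was at 1.62, 0 and 3.23 CPM in cells with 2 V genes, 18.2, 6.79 and 4.52 CPM with 3, and 93.2, 54.4 and 68.9 CPM with 4 or more in replicates 1, 2 and 3. Vcam1 was at 202, 31.8 and 179 CPM with 2 V genes, 907, 404 and 499 CPM with 3, and 2109, 1185 and 1855 CPM with 4 or more. Both therefore stood highest in the cells with most V genes in every library. Nr2f2 was at 63.7, 26.5 and 67.9 CPM with 2, 128, 102 and 102 CPM with 3, and 191, 193 and 169 CPM with 4 or more V genes. With 2 V genes, Nr2f2 in replicate 2 lay under its level in remaining cells given above. Vcam1 in replicate 2 then lay under its level in other cells given above. Mfsd2a ran the other way, at 199, 249 and 267 CPM with 2, 166, 211 and 202 CPM with 3, and 117, 157 and 137 CPM with 4 or more. Median depth with 2, 3 and 4 V genes was 8947, 11509 and 18028.5 UMIs in replicate 1, 12663, 11136 and 13630 in replicate 2, and 7730, 10288 and 10775 in replicate 3. It thus rose with the number in replicates 1 and 3 but not steadily in replicate 2, and its part was not tested.

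To look for a post-capillary subset, venous cells with Ackr1 or Lrg1 were set against venous cells with neither. This split was chosen after the data were seen, because an intended split on Ackr1 or Vwf left 15, 2 and 1 cells without them. It held 56, 6 and 44 cells with Ackr1 or Lrg1, against 444, 66 and 279 cells with neither. Values are given with no test, for replicates 1 and 3, as log2 ratios of CPM + 1. Of 6222 genes with at least 20 CPM on one side, 110 (1.77%) were at least 2-fold higher in both libraries and 52 (0.836%) at least 2-fold lower. In replicate 1 the cells with Ackr1 or Lrg1 had a median of 22449.5 UMIs, against 10520 in the others, while in replicate 3 the medians were 8602 and 8754. With depth-matched cells the counts were 91 and 42, of which 63 and 27 were shared with the first.

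At least 2-fold higher in both libraries in the cells with Ackr1 or Lrg1 were 4 of 15 adhesion genes, 3 of 13 iron and acute phase genes and 4 of 8 chemokines and cytokines, and with depth-matched cells 1, 3 and 2 of them. Selp, the P-selectin gene, had 189 and 33 UMIs (148 and 59.2 CPM) in these cells of replicates 1 and 3, against 2 and 1 UMIs in all other venous cells. Sele stood at 147 and 104 CPM, against 15.7 and 3.66 CPM in cells with neither, so that 188 of its 271 venous UMIs in replicate 1 and 58 of 68 in replicate 3 came from these cells. Lcn2 was at 833 and 773 CPM, against 39.0 and 45.0 CPM, or log2 4.38 and 4.07. Vcam1 was at 2961 and 2562 CPM, against 665 and 322 CPM. Ptgs2 was at 885 and 884 CPM, against 149 and 84.9 CPM. Against 21 depth-matched cells with neither, out of 444, replicate 1 gave log2 ratios of 0.53 for Sele, 0.65 for Vcam1 and 0.32 for Icam1, under 2-fold. Selp, Lcn2, Ptgs2, Csf3 and Serpina3g stayed past 2-fold in both libraries with depth-matched cells. Csf3, the granulocyte growth factor, had 86.8 and 5.38 CPM, against 1.13 and 0 CPM, and was thus found mainly in replicate 1. Serpina3g, a serine protease inhibitor, had 28 and 26 UMIs in cells with Ackr1 or Lrg1, and among venous cells it was detected in no others. Receptors of inflammatory cytokines among the genes past 2-fold were Il4ra, Il6st, Il17ra, Osmr and Tnfrsf1a, 5 of 23 in their list, with none lower.

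Some barrier transporters and capillary genes were lower in the same cells. Of 20 capillary genes 4 were at least 2-fold lower in both libraries, and 3 with depth-matched cells. Of 31 transporters none was at least 2-fold higher in both libraries and 5 were at least 2-fold lower, namely Mfsd2a, Lrp8, Slc29a1, Slc7a1 and Slc7a5. Mfsd2a was at 60.2 and 96.8 CPM in cells with Ackr1 or Lrg1, against 183 and 240 CPM in those with neither (log2 -1.59 and -1.30). Slc7a5 was at 291 and 398 CPM, against 640 and 805 CPM, but with depth-matched cells its log2 ratio in replicate 1 was -0.76. Cxcl12, a chemokine of capillaries and arteries, was at 558 and 500 CPM, against 2193 and 1966 CPM (log2 -1.97 in both). The list medians were -0.25 and -0.28 for transporters, -0.61 and -0.76 for capillary genes, 0.87 and 0.68 for the NF-kappaB list and 1.06 and 1.499 for 8 chemokines and cytokines. Fibroblast markers summed to 497 and 290 CPM in these cells, against 158 and 91.1 CPM in the others. Of the 10 markers 6 were at 0 in these cells of replicate 1 and 7 in replicate 3, so the sums rest on the few others. Col1a2, Col3a1, Lum, Ogn and Slc6a13 were at 0 in both libraries. In these cells of replicate 2 only Dcn and Apod were above 0, and Dcn had 1 UMI in all venous cells there. Erythrocyte markers summed to 4030, 363 and 278 CPM in cells with Ackr1 or Lrg1 of replicates 1, 2 and 3. In those with neither they summed to 6865, 8586 and 22622 CPM. The part of the fibroblast and erythrocyte markers in the values was not tested. In replicate 2, with 6 such cells, Vcam1 was at 1308 CPM, against 239 CPM, and no UMI of Selp was found.

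**Figure D5:**
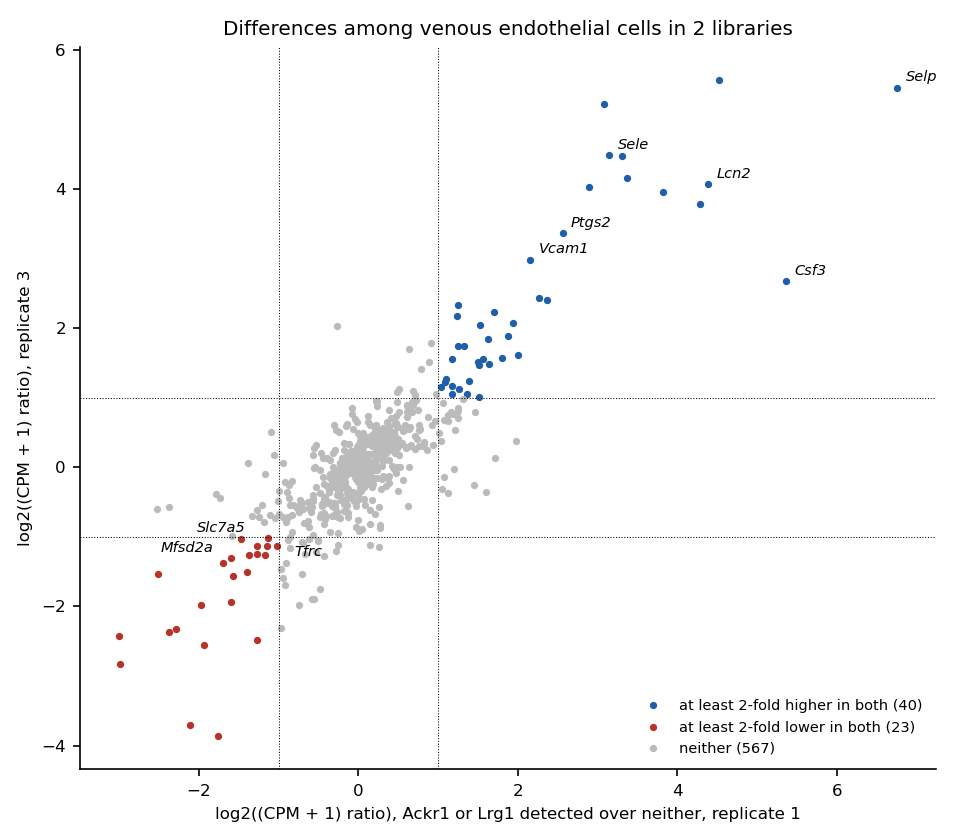
Each point is a listed or named gene, with its log2 ratio of CPM + 1 in venous cells with Ackr1 or Lrg1 over those with neither in replicate 1 (x axis) and replicate 3 (y axis); dotted lines mark 2-fold. Selp, Lcn2, Sele, Ptgs2 and Vcam1 lie past 2-fold upward in both libraries, and Mfsd2a and Slc7a5 past 2-fold downward.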

How the data were processed

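The deposited tables hold unnormalized UMI counts per gene and barcode, made with Cell Ranger on mm10, per the submitters' processing notes (version not given in the sources used). The lowest deposited total was 500 UMIs, so a filter was applied upstream. UMI counts were summed per library and class (Python 3.11.15, scanpy 1.11.5) and tested with edgeR 4.0.16 (quasi-likelihood, TMM, filterByExpr, Benjamini-Hochberg) in R 4.3.3, with the library as a block because the classes of a replicate come from the same library. The 23 genes of the rule and mitochondrial genes stayed in library sizes and were not tested. Arterial and remaining cells were compared with venous cells in 1 fit of 9 profiles. Scrublet calls were recorded and left out only in an alternative. Members and gene lists were chosen with earlier results of these data known. Named genes were the 12 highest and 12 lowest called genes at 20 CPM or more (6 and 6 against arterial and against remaining cells) and up to 4 members of each list with the smallest p; other list members were named after their values were seen. Of 31053 symbols 30531 matched GENCODE M21. Library depths stand in the report and their intervals cover counting error only. Alternatives were DESeq2 1.42.0, other scaling, filters, class rules, depth matching, a split of the UMIs, no block, and leaving out each library. The fit of venous against other cells was tested on simulated data, and the fit of 9 profiles was not. Some genes that the naming rule takes are not reported here.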

Additional observations from a re-analysis of the deposited data

How the results depend on the processing

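Counts of genes depended on the fit. For venous against other cells, DESeq2 called 280 higher and 516 lower, cells thinned to 2000 UMIs gave 185 and 298, other cells with no A and no V gene gave 101 and 290, and a stricter rule (at least 3 V and no A gene) gave 435 higher. Against arterial cells DESeq2 called 544 higher, and thinned cells gave 380 and 527. Against remaining cells DESeq2 called 234 and 387, thinned cells 136 and 191, and depth-matched cells 140 and 301. Without the replicate block the calls were 76 higher and 149 lower against other cells, 211 and 321 against arterial cells, and 26 and 50 against remaining cells; edgeR then called 0 of 25 NF-kappaB genes against other cells (9 higher and 1 lower at an unadjusted p under 0.05) and 1 of 33 transporters. Leaving out 1 library gave 312 to 975 higher and 577 to 1295 lower against other cells, 401 to 1018 and 592 to 1344 against arterial cells, and 134 to 522 and 268 to 651 against remaining cells. The venous share was 10.1% with at least 2 V genes besides Vwf (a rule added after the data were seen), 5.73% under the stricter rule, 24.5% at 4000 UMIs or more and 8.47% with thinned classes, and 20.8% to 22.1% without 1 library. Against other cells with no A and no V gene, 12 named genes had the opposite sign, at log2 values of 0.34 for Edn1, 0.63 for Ehd2, 0.00902 for Ehd4, 0.14 for Entpd1, 0.47 for Gadd45g, 0.17 for Jag2, 0.15 for Ltbp4, 0.38 for Mmrn2, -0.00205 for Ndufa3, -0.17 for Rel, 0.21 for S100a11 and 0.14 for Sox18. The causes were not tested. Of the other values of named genes under the alternatives, 1616 against other cells kept their call or stayed uncalled, and 189 lost the call. Direction was compared only for genes called in the main fit, so uncalled genes among the 1616 may have changed sign. Against arterial cells 174 kept direction and call, and against remaining cells 163 kept both and 7 lost the call. The planned split on Ackr1 or Vwf was not run, and replicate 2, with 72 venous cells, limits what its low genes can show.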

Other observations

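Several gene groups not described above also differed between venous and other endothelial cells in the same edgeR test, with p-values adjusted over all genes. Of 31 basement membrane and matrix genes, 13 were lower and 3 higher (Fn1, Hmcn1 and Lama4), against 8.97% and 6.03% of all genes, and of 34 genes of the cytoskeleton 14 were lower and 2 higher (Tmsb10 and Tmsb4x). Against other cells with no A and no V gene, 290 of all genes were lower and 101 higher. There 1 of 27 matrix genes was lower and 1 higher (median log2 0.07), and 2 of 32 cytoskeletal genes were lower and 2 higher (median 0.08). Markers of smooth muscle, 8 genes of which Cnn1 was at 0 in venous cells of replicates 2 and 3 and Myh11 in replicate 2, summed to 27.6, 17.5 and 29.8 CPM in venous cells, against 78.8, 88.7 and 89.5 CPM in other cells, and their part in these counts was not tested. Angpt2, an antagonist ligand of the receptor Tek, was at 12.5, 11.7 and 4.26 CPM in venous cells of replicates 1, 2 and 3, against 45.4, 23.9 and 26.2 CPM in other cells (log2 -1.93 ± 0.17, adjusted p = 3.02e-06). Ndufa8, a subunit of respiratory complex I, was at 206, 152 and 297 CPM in venous cells, against 96.7, 87.0 and 119 CPM in other cells (log2 1.11 ± 0.08, adjusted p = 5.33e-07). Neither gene's classes overlapped. Ndufa8 stood apart from its group, in which 6 of 73 genes were higher, with a median log2 fold change of 0.11.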
